A study of Drosophila melanogaster with 2 samples.

Results

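The genes described here encode cell surface and secreted proteins of the immunoglobulin superfamily through which neurons recognise other neurons and muscles. They are the dpr genes, the DIP genes, the beat genes, the side genes and a set of single genes (Fas2, Fas3, Dscam1, fra, robo1, robo2, robo3 and Lac). They were picked by the gene symbol in the platform annotation, and a gene had to have a value on both arrays. No ratio is part of that rule, but the families were chosen with earlier results of these data known. The rule found 32 genes among 8224 measured genes: 14 dpr, 5 DIP, 7 beat, 3 side, and Dscam1, Lac and fra. The RefSeq gene table held 21 dpr, 11 DIP, 14 beat and 8 side genes, so only part of each family was covered. The gene side itself, Fas2, Fas3, robo1, robo2 and robo3 were not among the 32.

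The study compared serpent (srp) mutant embryos of Drosophila melanogaster, called hemocyte minus in the labels, with wild type embryos, called hemocyte plus. The gene srp encodes a GATA transcription factor that embryonic blood cells (hemocytes) and the fat body need. Both RNAs were hybridised together on each of 2 arrays, called A and B, with hemocyte minus total RNA in Cy3 on the first and in Cy5 on the second. The sources used here give neither the mutant allele nor the age of the embryos, nor whether the arrays held separate RNA extracts. The labels call the embryos of array A unwounded and do not repeat the word for array B. The labels restrict the mutation to no tissue, so a difference between the embryos need not come from the hemocytes. Because the RNA came from mixed tissue, fewer cells of a type and less RNA per cell cannot be told apart.

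Dpr proteins (named after the defective proboscis extension response) bind Dpr-interacting proteins, the DIPs, across cell contacts. Different neurons carry different members of both families, and matching pairs help to select synaptic partners in the optic lobe and at the neuromuscular junction. Beaten path (Beat) proteins bind Sidestep (Side) proteins in a like manner. The founding pair steers motor axons, with Beat-Ia made by motor neurons and Side presented by their targets, muscles among them. Fra is a netrin receptor of growing axons, Dscam1 lets a neuron recognise its own branches, and Lac is an adhesion protein of septate junctions.

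All values below are log2 dye ratios of hemocyte minus over hemocyte plus, marked (A) and (B) for the array or given in that order. The labels do not say which dye was the numerator of the deposited ratio. The direction used is the likely one: it takes Cy3 as the numerator on both arrays, which places the crystal cell gene PPO1 lower in hemocyte minus embryos at -4.81 and -4.92. If Cy5 was the numerator, every sign turns and every size and p stays. The 10 hemocyte markers examined (PPO1 and PPO2 of crystal cells, and the plasmatocyte genes NimC1, NimC4, Hml, Pxn, Ppn, crq, Pvr and Col4a1) all lie below 0 on both arrays under this reading, so their side is part of the choice and no evidence for it. The mutated gene srp had -0.15 and -0.36 and did not pass the test (limma adjusted p = 0.221). Genes were tested with limma over all 8224 genes with Benjamini-Hochberg adjustment at 0.05. Its p-values rest on spread between these 2 arrays, which may be technical. The spread of each gene was drawn strongly toward that of all genes, with 1 residual and 5.01 prior degrees of freedom. The SD of a gene thus does not by itself set its p. Errors after ± are SDs of the 2 arrays.

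Of the 32 recognition genes, 10 were higher in hemocyte minus embryos and 0 were higher in hemocyte plus embryos. Among all 8224 genes, 8.18% were called higher in hemocyte minus and 5.27% higher in hemocyte plus, 13.4% in all. The 10 genes were 6 dpr genes (dpr10, dpr15, dpr17, dpr5, dpr18 and dpr11), 3 beat genes (beat-VI, beat-IV and beat-IIa) and side-III. No measured DIP gene passed, and neither did Dscam1, Lac or fra. At an unadjusted limma p under 0.05, 17 of the 32 lay on the hemocyte minus side, against 15.3% of all genes, and 1 (beat-Ia) on the hemocyte plus side, against 12.2% of all genes. The differences were small: dpr10 had the largest, 1.81-fold, and the 10 called genes went down to the 1.39-fold of dpr11. dpr10 alone of the 32 was at least 1.5-fold on each array on the hemocyte minus side, as were 4.79% of all genes. When tested against a 1.2-fold difference in place of no difference, dpr10 alone of the 32 still passed (limma adjusted p = 0.0238). Over all 8224 genes, 336 passed that test on the hemocyte minus side. The share of members that passed it was thus no larger than the share of all genes.

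The median log2 ratio of the 32 genes was 0.32, with 0.36 (A) and 0.26 (B), while the median over all genes was -0.0014. Above 0 on both arrays were 24 of the 32, against 34.4% of all genes, and 3 were below 0 on both (beat-Ia, Lac and fra), against 34.2%. The other 5 (dpr20, dpr16, dpr3, side-VI and side-VII) had opposite signs on the arrays. In the ranking of all genes by mean ratio, 23 of the 32 stood at or above the 75th percentile (0.18) and 4 stood below the median. The members are related genes of one nervous system, so they are not independent measurements. Binding of a probe to the transcript of a related member was not tested.

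**Figure D1:**
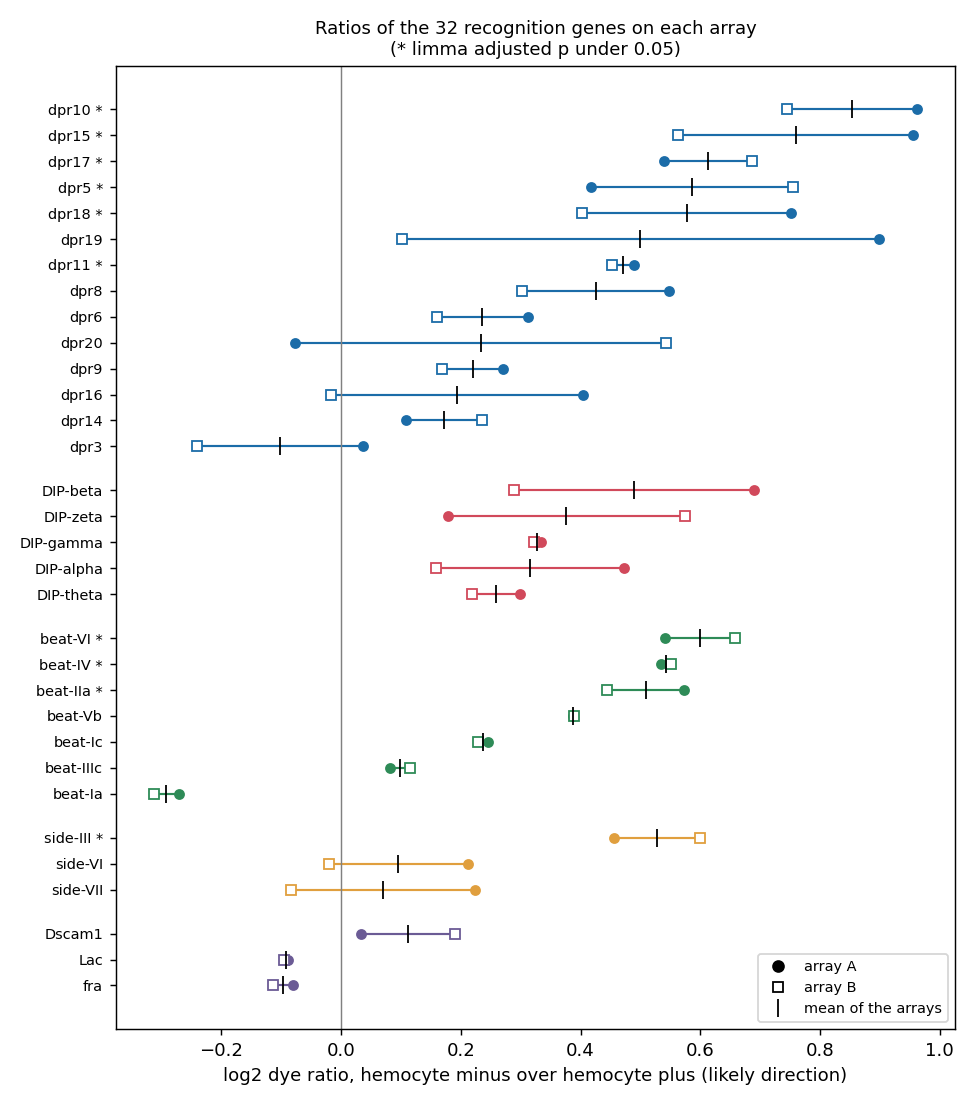
Log2 dye ratios (hemocyte minus over hemocyte plus, horizontal axis) of the 32 genes by family, with array A as filled circles, array B as open squares and the mean as a tick. Asterisks mark the 10 genes past the limma threshold; 24 genes lie right of 0 on both arrays, and the points of each beat gene lie close together.

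The dpr genes, which encode the larger set of the Dpr and DIP partners, had a median of 0.45 (A 0.45, B 0.35), the highest of the families by the mean and on array A, while on array B the beat median of 0.39 was higher. Of 14 measured, 6 passed on the hemocyte minus side and 0 on the other, and 11 were above 0 on both arrays. dpr10 had ratios of 0.96 (A) and 0.75 (B). Its mean of 0.85 ± 0.15, a 1.81-fold difference, passed the test (limma adjusted p = 0.0068) and ranked 285 of 8224 genes from the hemocyte minus side. Dpr10 is made by muscles and by neurons, and in muscles it is the partner of DIP-alpha on an innervating motor neuron.

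The gene dpr15 had ratios of 0.96 (A) and 0.56 (B), with a mean of 0.76 ± 0.28 (1.69-fold, limma adjusted p = 0.0169). dpr17 had 0.54 and 0.69, with a mean of 0.61 ± 0.10 (1.53-fold, limma adjusted p = 0.0192). Proteins of both, like Dpr11 and Dpr16, are known as binding partners of DIP-gamma. dpr11 had 0.49 and 0.45, a mean of 0.47 ± 0.03 (1.39-fold, limma adjusted p = 0.0402), and its protein with DIP-gamma matches colour photoreceptors to their target cells in the optic lobe. dpr16 had 0.40 (A) but -0.02 (B), and its mean of 0.19 ± 0.30 did not pass (limma adjusted p = 0.424).

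dpr5 had ratios of 0.42 (A) and 0.76 (B), with a mean of 0.59 ± 0.24 (limma adjusted p = 0.0341). dpr18 had 0.75 and 0.40 (mean 0.58 ± 0.25, 1.49-fold, limma adjusted p = 0.0368). The arrays of dpr19 lay furthest apart among the 32 genes, at 0.90 (A) and 0.10 (B), and its mean of 0.50 ± 0.56 did not pass (limma adjusted p = 0.165). dpr8 had 0.55 and 0.30 and a mean of 0.43 ± 0.17, which did not pass either (limma adjusted p = 0.0733).

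The other dpr genes lay nearer to 0 and did not pass. dpr6, whose protein also binds DIP-alpha, had 0.31 and 0.16 (mean 0.24 ± 0.11). dpr9 had 0.27 and 0.17 (mean 0.22 ± 0.07), and dpr14 had 0.11 and 0.24 (mean 0.17 ± 0.09). These 3 were above 0 on both arrays, and on each array below all 10 called genes. dpr20 had -0.08 (A) and 0.54 (B), with a mean of 0.23 ± 0.44. dpr3, with 0.04 and -0.24, was the dpr gene with a mean below 0 (-0.10 ± 0.20). In 10 of the 14 dpr genes the ratio was larger on array A than on array B, and in 6 the arrays were more than 0.3 apart.

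The 5 DIP genes, which encode the receptors that pair with Dpr proteins, had a median of 0.33 (A 0.33, B 0.29). All 5 were above 0 on both arrays, and 0 passed the limma test over all genes, while 4 had an unadjusted p under 0.05. DIP-beta had 0.69 (A) and 0.29 (B), with a mean of 0.49 ± 0.28 (limma adjusted p = 0.0713). It passed without centring of the arrays (limma adjusted p = 0.0488, range over the alternatives 0.0488 to 0.524). DIP-zeta had 0.18 and 0.57 (mean 0.38 ± 0.28). DIP-gamma, the partner of Dpr11, had 0.33 and 0.32 (mean 0.33 ± 0.01, limma adjusted p = 0.113).

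DIP-alpha, the partner of Dpr10 and Dpr6, had 0.47 (A) and 0.16 (B), with a mean of 0.32 ± 0.22 (limma adjusted p = 0.172). DIP-theta had 0.30 and 0.22 (mean 0.26 ± 0.06, limma adjusted p = 0.194). The means of the 5 DIP genes thus ran from 0.26 to 0.49, and those of the 14 dpr genes from -0.10 to 0.85. A range tends to widen with the number of genes, so the widths of these are not comparable. Whether the DIP genes differ from the dpr genes was not tested, since members of a family are not replicates of a condition. For the pairs named here, DIP-alpha stood at 0.32 beside dpr10 at 0.85 and dpr6 at 0.24, and DIP-gamma at 0.33 beside dpr15 at 0.76, dpr17 at 0.61, dpr11 at 0.47 and dpr16 at 0.19.

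The beat genes split into members above 0 and beat-Ia below it. Of 7 measured, 3 passed on the hemocyte minus side and 0 on the other, 6 were above 0 on both arrays and the family median was 0.39, with 0.39 on each array. beat-VI had 0.54 (A) and 0.66 (B), with a mean of 0.60 ± 0.08 (1.52-fold, limma adjusted p = 0.0197). The Beat-VI protein is known to bind Side-II, a gene not analysed here. beat-IV had 0.53 and 0.55 (mean 0.54 ± 0.01, 1.46-fold, limma adjusted p = 0.0257). beat-IIa had 0.57 and 0.45 (mean 0.51 ± 0.09, 1.42-fold, limma adjusted p = 0.0341).

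beat-Vb had 0.39 on both arrays and did not pass (1.31-fold, limma adjusted p = 0.0723). beat-Ic had 0.25 and 0.23 (mean 0.24 ± 0.01), and beat-IIIc had 0.08 and 0.11 (mean 0.10 ± 0.02), both without passing. The founding member beat-Ia, whose secreted product lets motor axons leave their bundles, had -0.27 (A) and -0.31 (B). Its mean of -0.29 ± 0.03 was the lowest of all 32 genes and did not pass (limma adjusted p = 0.149). The arrays lay closer together for the beat genes than for the dpr genes: the median distance between arrays was 0.032 for beat and 0.26 for dpr. Over all genes that median was 0.17, so the arrays of the dpr genes lay further apart than is typical. Of the 7 beat genes, 0 had arrays more than 0.3 apart.

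Of the side genes, which encode the transmembrane partners of Beat proteins, side-III passed and the other two did not. side-III had 0.46 (A) and 0.60 (B), with a mean of 0.53 ± 0.10 (1.44-fold, limma adjusted p = 0.0309). side-VI, whose protein binds Beat proteins of the V group, had 0.21 and -0.02 (mean 0.10 ± 0.17), beside the 0.39 of beat-Vb. side-VII had 0.22 and -0.08 (mean 0.07 ± 0.22). The family median was 0.10, with 0.22 (A) and -0.02 (B), so its sign rests on array A.

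The single genes lay close to 0. Dscam1, which is made by neurons and also by hemocytes and fat body, had 0.03 (A) and 0.19 (B), with a mean of 0.11 ± 0.11 (limma adjusted p = 0.577). Lac had -0.09 and -0.10 (mean -0.092 ± 0.0049, limma adjusted p = 0.637). fra had -0.08 and -0.11 (mean -0.10 ± 0.02, limma adjusted p = 0.616). Outside the nervous system, Lac is known from epidermis and trachea and fra from the midgut. Their median of -0.09 stood beside the medians of 0.45, 0.33, 0.39 and 0.10 for the dpr, DIP, beat and side genes.

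**Figure D2:**
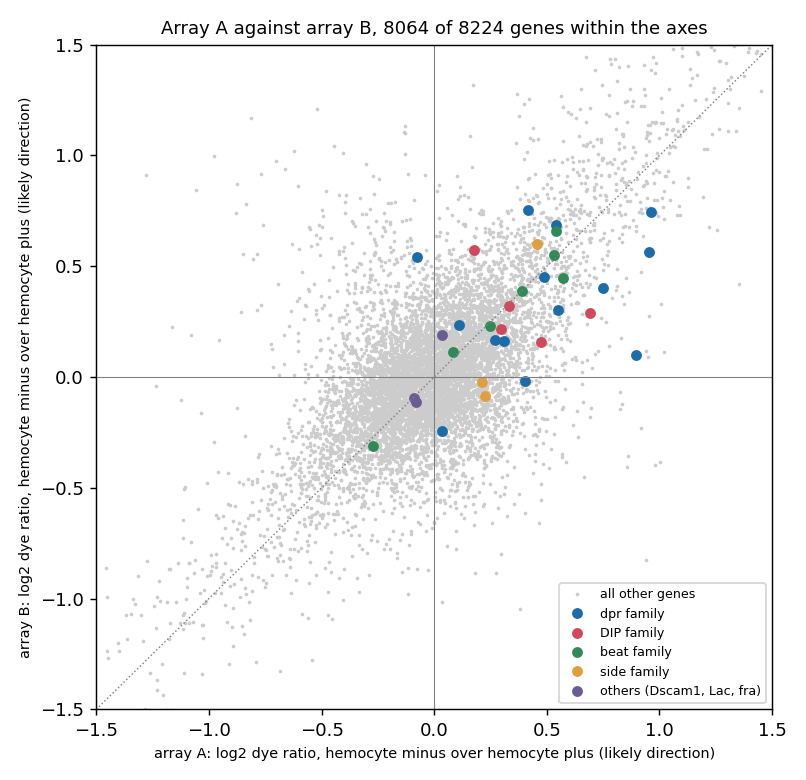
Log2 dye ratios (hemocyte minus over hemocyte plus) on array A (horizontal) against array B (vertical), with the 32 genes coloured by family and other genes in grey; 8064 of 8224 genes lie within the axes, and the dotted line marks equal ratios. Most coloured points sit above and to the right of 0, the beat genes near the dotted line and several dpr genes below it.

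A pair of probes was available for 7 of the 32 genes, and the other 25 had 1 probe. The probes of DIP-theta lay close, with means of 0.27 and 0.25, as did those of Dscam1, with 0.11 each. The probes of dpr8 had means of 0.39 and 0.46, and those of dpr16 had 0.15 and 0.24. The probes of dpr6 differed more, with means of 0.36 and 0.11, and the second had 0.40 (A) and -0.17 (B).

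Both DIP-zeta probes come from one clone, spotted as such and, by its name, re-amplified. The first had -0.21 (A) and 0.88 (B), with a mean of 0.33 ± 0.77, and the re-amplified one had 0.57 and 0.27 (mean 0.42 ± 0.21). Array B was thus the higher one for the first probe and the lower one for the other. Their average has a smaller SD (0.28) than the first probe, and its unadjusted limma p was 0.0317. Without the re-amplified probe, DIP-zeta had a limma adjusted p of 0.471. For beat-Ia the plain probe had -0.46 and -0.37 (mean -0.42 ± 0.06) and the re-amplified one -0.08 and -0.25 (mean -0.17 ± 0.12). All 4 of these beat-Ia values were below 0, and the plain probe by itself did not pass either (limma adjusted p = 0.0694).

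**Figure D3:**
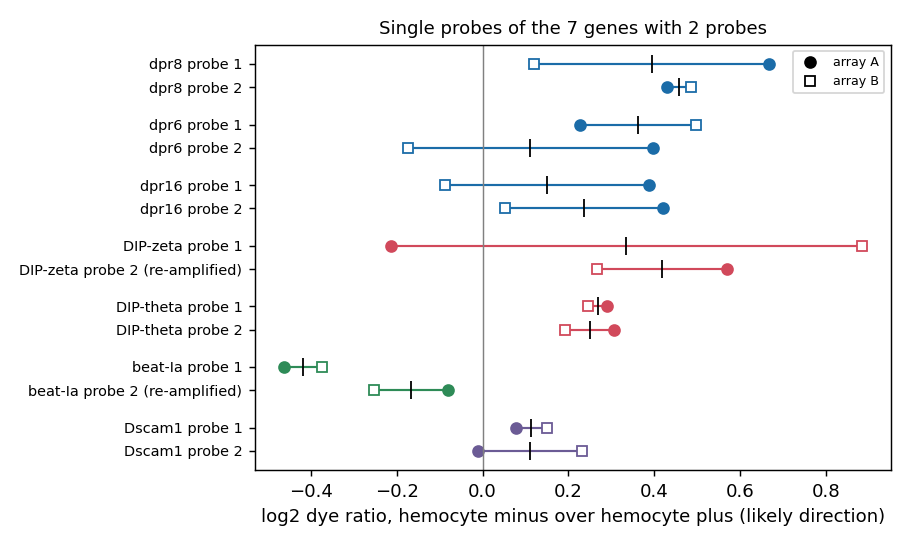
Log2 dye ratios (hemocyte minus over hemocyte plus) of each probe of the 7 genes with a pair of probes, with array A as filled circles, array B as open squares and the mean as a tick. The first DIP-zeta probe spans -0.21 to 0.88, while both DIP-theta probes stay between 0.19 and 0.31.

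The probes are cDNA clones whose name starts with a code for their library, and most member probes came from the adult head libraries GH and RH or the embryo library RE. All 12 member probes of library GH had a mean above 0, with a median of 0.36, beside a median of 0.04 over all 1836 GH probes. For library RE, 11 of 14 member probes were above 0 with a median of 0.33, beside 0.07 over all 2075 probes. For library RH, 4 of 5 were above 0 with a median of 0.15, beside 0.09 over all 799 probes. By these medians the members lay further to the hemocyte minus side than the library as a whole, by the least in RH. Probes of one gene were counted separately, such as both of dpr16 in RH. The share of all probes of a library above 0 was not counted.

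Other genes of the nervous system were read beside the recognition families. Neuron markers had a median of 0.21 over 8 measured genes, with 0.30 (A) and 0.27 (B), and ran from -0.22 to 0.68. Gad1, which makes the transmitter GABA, was higher in hemocyte minus embryos at 0.68 ± 0.02 (limma adjusted p = 0.0118), as was the synaptic vesicle gene nSyb at 0.46 ± 0.09 (limma adjusted p = 0.047). The call of nSyb ended under 4 of the alternative settings. The other 6 did not pass, among them the active zone gene brp at 0.37 ± 0.09 and cac at 0.35 ± 0.17. Also among them were elav at -0.14 ± 0.32 and the microtubule protein gene futsch at -0.22 ± 0.06. At an unadjusted limma p under 0.05, 4 of the 8 lay on the hemocyte minus side and 0 on the other. The shares of all genes were 15.3% and 12.2%. Of 7 glia markers 0 passed by limma, with 1 (Gs2) at an unadjusted p under 0.05, from Gs2 at -0.29 ± 0.05 to moody at 0.26 ± 0.03, with a median of 0.05.

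Guidance ligands, their receptors and signalling partners lay near 0 as a list. Of 15 measured genes 0 passed on either side by limma, 1 on each side had an unadjusted p under 0.05, and the median was -0.05. That median changed sign between the arrays, with 0.026 (A) and -0.16 (B). They ran from dnt, a Ryk family receptor, at -0.44 ± 0.12 (limma adjusted p = 0.0576) to NetB, a ligand of Fra, at 0.38 ± 0.19 (limma adjusted p = 0.104). A list of 28 other neuronal surface proteins was read too. It is not purely neuronal, since it holds the myoblast fusion gene hbs, and it shares Cont with the epidermis list below. At an unadjusted limma p under 0.05, 2 of its genes lay on the hemocyte minus side and 4 on the hemocyte plus side. The list had a median of -0.10 (A -0.033, B -0.13). By adjusted p, 0 of its genes were higher in hemocyte minus (8.18% of all genes) and 3 higher in hemocyte plus (5.27% of all genes). These were hbs, an immunoglobulin protein of myoblast fusion, at -0.83 ± 0.09 (limma adjusted p = 0.00613), the leucine-rich repeat gene trn at -0.54 ± 0.07 (0.0267) and neurotactin (Nrt) at -0.45 ± 0.01 (0.047), whose call ended under 4 of the alternative settings. The highest of that list was Nrx-1, a synaptic organiser, at 0.41 ± 0.42 (limma adjusted p = 0.176). Whether the recognition families differ from these lists was not tested.

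**Figure D4:**
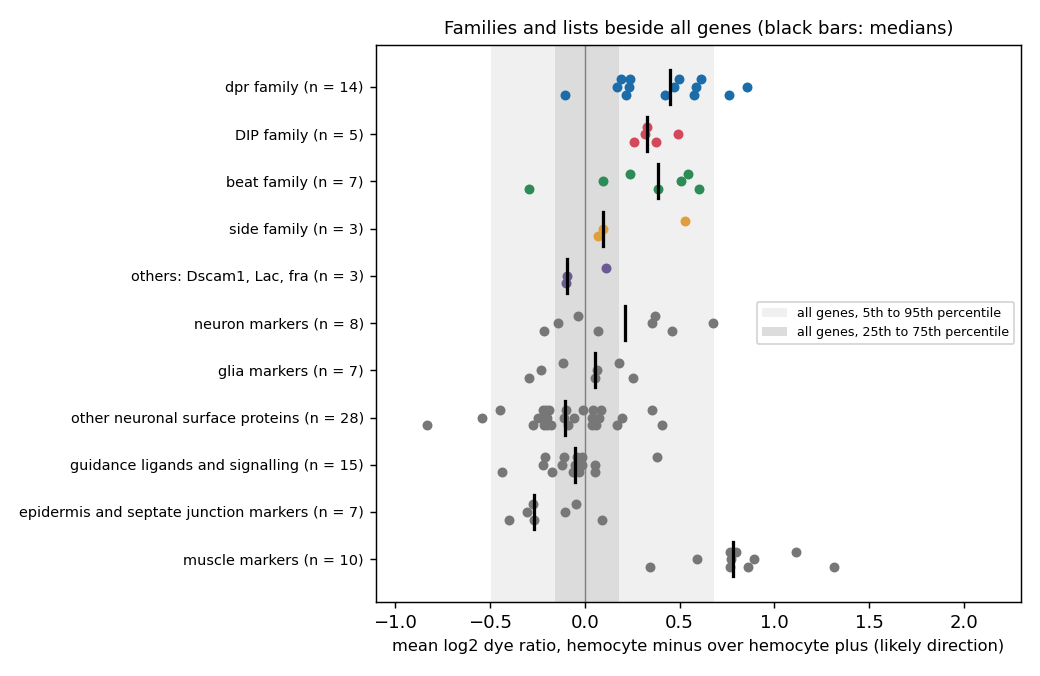
Mean log2 dye ratio (hemocyte minus over hemocyte plus, horizontal axis) of each gene, by family and by comparison list, with black bars at the medians; grey bands span the 25th to 75th and the 5th to 95th percentiles of all genes. The dpr, DIP and beat medians (0.45, 0.33 and 0.39) lie right of the inner band, as do those of the neuron (0.21) and muscle (0.78) markers. The medians of the guidance and other surface protein lists (-0.05, which changed sign between the arrays, and -0.10) lie within that band.

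Muscle genes moved too. Of 10 measured muscle genes 9 were higher in hemocyte minus embryos, and all 10 were above 0 on both arrays. They ran from Act87E at 0.35 ± 0.04, which did not pass, upwards with a median of 0.78 (0.91 on A, 0.73 on B), led by the LIM protein gene Mlp60A at 1.32 ± 0.20 (limma adjusted p = 0.00195). Tested against a 1.2-fold difference, 7 muscle genes still passed, and the calls of up and sls ended. Some recognition genes, dpr10 among them, are also transcribed in muscle. Of 7 epidermis and septate junction genes, among which Lac would count by its function, 0 passed by limma, with 2 at an unadjusted p under 0.05 on the hemocyte plus side, a median of -0.27 (A -0.14, B -0.12) and a range from crb at -0.40 ± 0.07 to sinu at 0.09 ± 0.04. That median is the mean of shg, with -0.57 (A) and 0.03 (B), and lies further from 0 than the median on either array. The part of muscle, neuron and epidermis content in the recognition gene ratios was not tested.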

How the data were processed

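Values came from 2 dye-swapped two-colour cDNA arrays. The deposited table holds a value per array for each probe, all below 0, from -31.17 to -0.01, with medians of -0.989 and -1.021. Other than the labels' dyes, no header names a unit or normalization, and the values were read as a linear dye ratio multiplied by -1: the log2 sizes of the arrays correlated at r = -0.689 before turning, as a dye swap gives. The sources used here give no scanner, background correction or signal over background. The log2 of each size was turned to hemocyte minus over hemocyte plus (Cy3 as numerator) and centred on the array's median over 12144 probes. Probes with 1 symbol in the platform annotation and values on both arrays (9793) were averaged per gene, with no filter on low values. Names followed the annotation, and the RefSeq table (Release 6) held 62 genes that fit the rule, of which 32 were measured. RefSeq symbols chose the same members. The test was an intercept-only fit with lmFit and eBayes of limma 3.58.1 (R 4.3.3) at a threshold of 0.05, with 1 residual and 5.01 prior degrees of freedom. The procedure was tested on simulated data. Named were all members, and from each list the genes past the threshold with its lowest and highest gene; a few more, brp, elav and further markers, were named after their values were seen. The hemocyte list served the direction only: all 10 passed as higher in hemocyte plus (median -1.24). Members and lists were chosen with earlier results of these data known. Tried as alternatives were no centring, scaled arrays, the probe of largest change, marked probes left out, a 1.2-fold test and single arrays.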

Additional observations from a re-analysis of the deposited data

How the results depend on the processing

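All 10 called recognition genes stayed called, with one direction, without centring (11 called in all, DIP-beta added, so 1 DIP gene), with scaled arrays, with the probe of largest change and without marked probes. Tested against a 1.2-fold difference, 1 member remained (dpr10, 1 dpr gene), with 0 beat genes and 0 side genes, 1 other surface protein gene (hbs) higher in hemocyte plus, 0 neuron markers and 7 muscle genes, without up and sls. Over all genes that test left 336 higher in hemocyte minus and 199 higher in hemocyte plus, against 673 and 433, since it asks for a larger difference. The count of called neuron markers was 1 (Gad1) with scaled arrays, with the probe of largest change and without marked probes. Without centring, 1 guidance gene (dnt) and 1 epidermis gene (crb) passed as higher in hemocyte plus. Medians were then 0.37 (beat), -0.12 (Dscam1, Lac and fra), 0.19 (neuron) and -0.29 (epidermis). Centring subtracts the array's median, -0.016 (A) and -0.03 (B), so without it all gene means and list medians are lower by the same amount. With the probe of largest change the hemocyte median was -1.53. Of the 10 hemocyte markers, 9 stayed called without marked probes, where NimC1 did not pass. In the 1.2-fold test 9 stayed called, and Hml did not pass. Single arrays allow no test. Over the single arrays the medians ranged from 0.35 to 0.45 (dpr), 0.29 to 0.33 (DIP), 0.388 on both (beat), -0.021 to 0.22 (side), -0.096 to -0.081 (Dscam1, Lac and fra), -0.16 to 0.026 (guidance), -0.13 to -0.033 (other surface proteins), 0.27 to 0.30 (neuron), -0.030 to 0.034 (glia), -0.14 to -0.12 (epidermis) and -1.31 to -1.22 (hemocyte). The side median changed sign on array B alone, and the guidance and glia medians on array A alone. Each array holds both RNAs, so the ratio tested against 0 already pairs hemocyte minus with hemocyte plus. The number of arrays limits the precision, and the signal over background of the probes is unknown.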

Other observations

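Probes outside the comparison also carried values of recognition genes. The robo1 probe, for a receptor of the midline repellent Slit, had a log2 ratio of 0.15 on array A and no value on array B. The side-VIII probe had 0.99 on array B and no value on array A. A probe annotated to both Coa7 and DIP-kappa had 0.60 on array A and 0.21 on array B (mean 0.40 ± 0.28), and which gene it measured is unknown. A probe annotated to both RpL10Ab and fra had 0.04 and 0.34 (mean 0.19 ± 0.21), where the probe of fra itself had -0.08 and -0.11.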
